A study of Mus musculus with 6 samples.

Results

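The enzymes described here modify and clear foreign compounds and process vitamin A. They were chosen by symbol as the cytochrome P450 families Cyp1 to Cyp4, glutathione S-transferases (Gst), UDP-glucuronosyltransferases (Ugt1 and Ugt2), sulfotransferases (Sult1 and Sult2), carboxylesterases (Ces1 and Ces2), alcohol dehydrogenases (Adh) and retinaldehyde dehydrogenases (Aldh1a). Of 17526 genes in the table, 124 symbols matched, and 77 had an estimated count of 10 or more in at least 3 libraries. All 77 were tested.

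RNA came from mouse small intestinal crypts, epithelial pockets with stem cells, progenitors and Paneth cells. The 3 floxed controls (Fpr2f/f, labelled WT) carry a floxed Fpr2 gene, whose product binds formylated peptides at the cell surface, and no knockout. The 3 knockouts (Fpr2VKO) are labelled as lacking the receptor in the intestinal epithelium. The comparison asks how the loss of the receptor bears on the crypt epithelium; the sources used here do not give the driver of the recombinase, strain, sex, age or pooling of animals.

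Foreign compounds are handled in steps. Phase I enzymes such as P450s, carboxylesterases and alcohol dehydrogenases add or uncover a reactive group, and phase II enzymes attach glutathione, glucuronic acid or sulfate, after which transporters export the product. Retinol is oxidised to retinal by alcohol and retinol dehydrogenases and then to retinoic acid, a ligand of nuclear receptors, by the Aldh1a enzymes. In the small intestine many of these enzymes are most abundant in differentiated enterocytes.

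Values of the 3 libraries of a group are given in the order of replicates 1, 2 and 3. Libraries held between 11108511 and 16859902 estimated counts. Because Fpr2 itself was not analysed here, the targeted gene gives no check of the genotypes. Whether each library came from its own animal is not stated in the labels, and the p-values therefore measure only the spread between libraries, which may be technical. Summed over 6 tested Paneth cell markers, levels were 52114, 48507 and 97492 CPM (counts scaled to library size, with TMM factors) among the floxed controls and 26169, 17957 and 16193 among the knockouts. T cell markers summed to 187, 52.2 and 156 CPM in the floxed controls and 44.9, 52.9 and 59.8 in the knockouts, so that floxed controls 1 and 3 stood apart from the other 4 libraries. Of 6 hepatocyte markers 2 passed the filter on low counts, Ttr (7.05 to 15.9 CPM) and Apoh (0.56 to 2.26 CPM). Ttr and Apoh were both lower in the knockouts (log2 fold changes -0.55 and -1.12), with overlapping groups. Alb had at most 5 counts in a library, and none of the 5 fibroblast markers passed. In bulk RNA, fewer cells of a type and less RNA per cell cannot be told apart.

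No enzyme differed between the genotypes past an adjusted p of 0.05 over all genes by edgeR's quasi-likelihood test, against 0.0155% of all 12943 genes tested (2 genes, 0.00773% higher and 0.00773% lower). At an unadjusted p under 0.05 there were 4 of the 77 enzymes (5.19%), fewer than the 13.7% of all genes. Of these, 2 were higher in the knockouts (2.6%, against 4.09% of all genes), namely Cyp4f40 and Ugt1a6b, and 2 were lower (2.6%, against 9.63%), namely Ces1c and Cyp2c68. DESeq2 called 1 enzyme, Ces1c, at an adjusted p under 0.05, a share of 1.3% against 2.48% of all genes in either direction and 2.19% lower in the knockouts. The groups did not overlap, with the knockouts above, for 2 enzymes, Cyp4f40 and Cyp4x1 (6.99% of all genes), and with the knockouts below for 1, Ces1c (10.3% of all genes).

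The median log2 fold change, knockout over floxed control, was -0.04 over the enzymes and -0.01 over all genes. With 1 library left out, the median over the enzymes ran from -0.21 (without knockout 3) to 0.10 (without floxed control 3), and it was also above 0 (0.0088) without knockout 2. A positive value was found for 30 enzymes (39%, against 48.1% of all genes) and a negative one for 47 (61%, against 51.9%). For 47 enzymes (61%) the 95% interval of the fold change lay within a 2-fold difference either way, as it did for 75.2% of all genes. For the other enzymes a 2-fold difference was thus within the interval. The median SD of the log2 levels within a group was 0.34 (floxed control) and 0.37 (knockout) for the enzymes, and 0.28 and 0.19 for all genes.

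**Figure D1:**
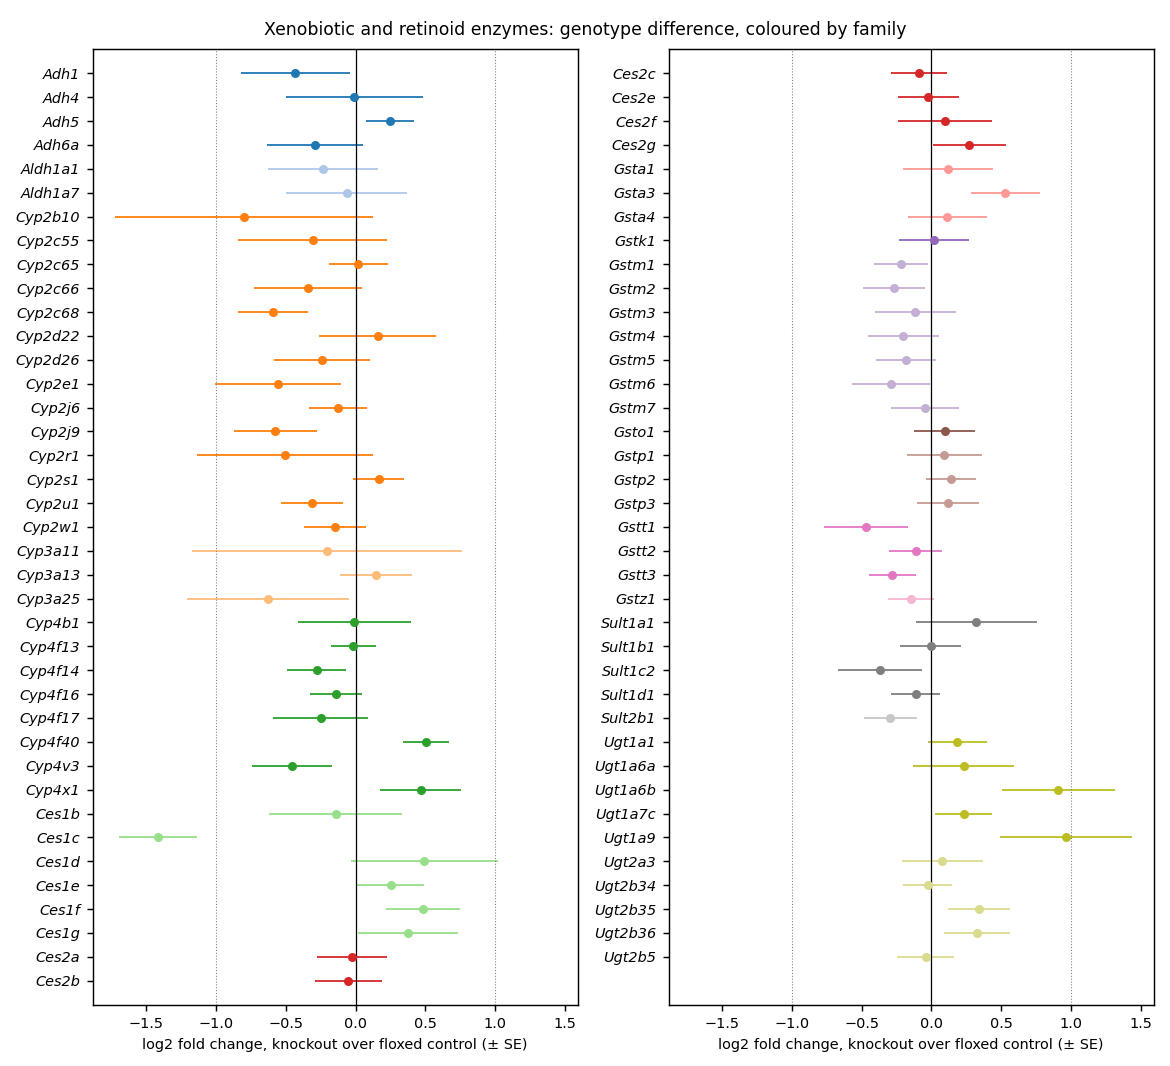
Log2 fold change (x axis, knockout over floxed control) of each of the 77 enzymes (y axis), with bars of 1 SE from edgeR, coloured by family; dotted lines mark a 2-fold difference. Ces1c lies farthest to the left, at -1.41, and most other enzymes lie within the dotted lines.

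Together the enzymes took 0.433%, 0.431% and 0.47% of the counts of the floxed controls and 0.474%, 0.473% and 0.602% of those of the knockouts. Knockout 3 was highest and the other 5 libraries lay close together. The difference of the means was 0.0717 percentage points of the total count. With effective (TMM-scaled) library sizes it was -0.00427 percentage points. The Paneth markers summed above also differed between the groups, and their part in the difference was not tested.

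Levels of different enzymes were compared as CPM per kb of transcript. Gstp1, a glutathione transferase of the pi class, was highest at 571 CPM per kb on average over the 6 libraries, followed by Gsto1 of the omega class at 408, Cyp4f14, a fatty acid and leukotriene hydroxylase, at 157, and the carboxylesterase Ces2e at 139. Their ranges over libraries overlapped between Gstp1 and Gsto1 and between Cyp4f14 and Ces2e, but not between Gsto1 and Cyp4f14. Above 100 CPM per kb there were 4 enzymes, between 10 and 100 there were 41, and below 10 there were 32. The 5 highest, with Gstp2, held 48.5% of the summed level. The lowest was the vitamin D hydroxylase Cyp2r1, at 0.293 CPM per kb.

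**Figure D2:**
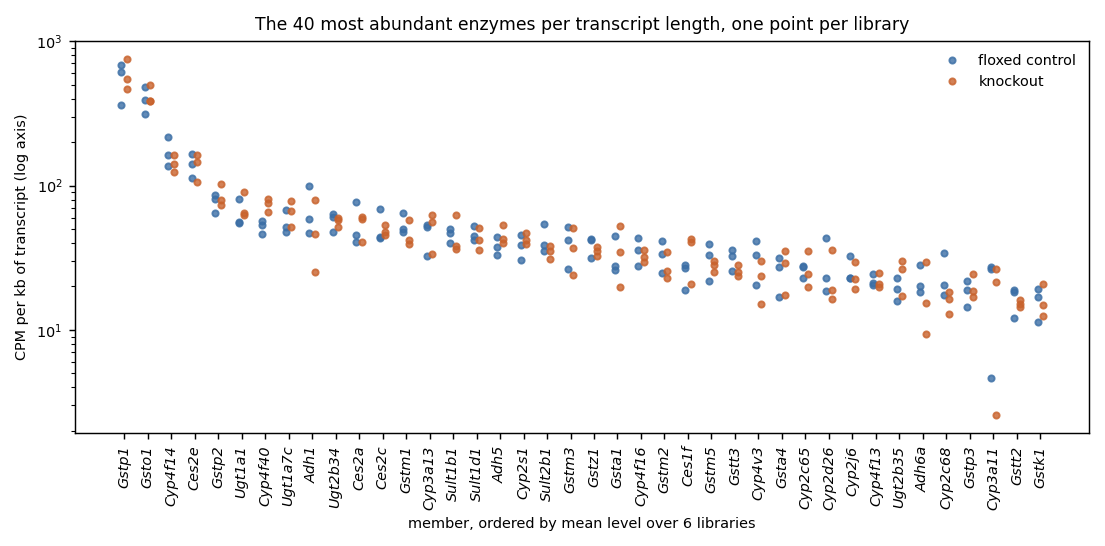
Level per transcript length (y axis, CPM per kb, log axis) of the 40 most abundant enzymes, ordered by mean level (x axis), with 1 point per library (blue floxed control, orange knockout). Blue and orange points overlap for every enzyme shown but Cyp4f40, and Gstp1 and Gsto1 lie above the rest.

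Of the 47 matches that were left out, 37 had under 10 counts in every library and 10 reached 10 counts in 1 or 2 libraries. Both Cyp1 genes were among them: Cyp1a1, the best known target of the aryl hydrocarbon receptor, had between 0 and 6 counts, and Cyp1b1 had at most 1. Cyp3a44, Cyp3a59, Cyp4f15 and Ugt1a2 lay just outside the rule, with 10 counts or more in 2 libraries each. Their highest counts were 13.6, 18.9, 27.7 and 10.3. Ugt1a2 had 0 counts in every floxed control and 10.3, 10.2 and 5.89 in the knockouts. These counts are near the floor, and Ugt1a2 was not tested. Of its 50-base windows, 63.7% also occur in other genes, such as Ugt1a5, so reads may have been divided among copies. Among all genes tested, 6.99% had knockouts above all floxed controls. Just inside the rule, Cyp2r1 reached 10 counts in 4 libraries. All 7 Gstm matches and all 4 Sult1 matches were kept, but 14 of 33 Cyp2 matches and 8 of 15 Cyp4 matches.

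Among phase I enzymes, the carboxylesterase Ces1c (gene 13884, chr8:93099015-93131283 in GRCm38.p6) had the smallest p of all 77 enzymes by edgeR. It encodes a secreted esterase known from mouse plasma, which hydrolyses ester and amide drugs. Ces1c stood at 18.1, 11.01 and 18.1 CPM among the floxed controls and 7.22, 6.49 and 3.92 CPM among the knockouts. Every knockout lay below every floxed control. The log2 fold change was -1.41 ± 0.28 (SE, n = 3 each), with a 95% interval from -2.03 to -0.79, so that the level in the knockouts was 2.67-fold lower. It did not pass over all genes by edgeR (adjusted p = 0.0952), and passed by DESeq2 (adjusted p = 0.00109). The edgeR call was reached with no filter beyond 1 count (adjusted p = 0.0334) and without floxed control 2 (adjusted p = 0.0119). With floxed controls 1 and 3 left out the log2 fold change was -0.84. Within the pair of floxed control 2 and knockout 1 it was -0.60, and within the other 4 libraries -1.82. Paneth cell markers, summed above, were also lower in every knockout than in every floxed control (6 of 6 genes, against 10.3% of all genes). The same held for 4 of 5 enteroendocrine, 4 of 5 stem cell, 3 of 6 goblet and 2 of 5 tuft cell markers. It held for 0 of 12 enterocyte, 0 of 6 T cell and 0 of 3 tested B and plasma cell markers. The same was so for 0 of 2 tested hepatocyte markers, though both had a negative log2 fold change. The part of these markers in the Ces1c difference was not tested. Of the 50-base windows of the Ces1c transcripts, 16.3% also occur in another gene, such as Ces1b, so a part of its reads could be assigned elsewhere.

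The 250 bases upstream of the RefSeq start of Ces1c, on the minus strand at chr8:93131284-93131533 (GRCm38.p6), are shown because Ces1c was the one enzyme whose knockouts lay below all controls. Capitals mark matches to the D-box TTATGNAA, on either strand, the element of the clock output factors Dbp, Tef and Hlf. They begin 239 and 94 bases before the start.
Ces1c: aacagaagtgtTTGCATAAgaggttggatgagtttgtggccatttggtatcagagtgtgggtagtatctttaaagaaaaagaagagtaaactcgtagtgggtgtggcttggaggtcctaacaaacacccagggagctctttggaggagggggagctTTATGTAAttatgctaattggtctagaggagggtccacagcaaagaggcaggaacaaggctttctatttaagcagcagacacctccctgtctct
RefSeq promoter windows were found for 67 of the 77 enzymes. The D-box letters occur in the 250 upstream bases of 8 of these 67 (11.9%) and of 3.63% of all genes with a window. The 8 were Ces1b, Ces1c, Ces1e and Ces1g, which are neighbours, and Cyp2b10, Cyp4f14, Gstt1 and Ugt1a9. Genes of 1 cluster share sequence, so the Ces1 matches are not independent. Ces1e, Ces1g and Ugt1a9 had a positive log2 fold change (0.25, 0.38 and 0.96), and the others a negative one. A match is a description of the letters only.

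The other 5 Ces1 genes lie with Ces1c in 280.5 kb of chromosome 8. None of them passed by edgeR, and 4 had a positive log2 fold change. Ces1b, at a low level, had -0.14 with a 95% interval from -1.19 to 0.91. Ces1f, the most abundant of the family, stood at 36.3, 51.9 and 54.7 CPM in the floxed controls and 77.9, 39.8 and 82.3 CPM in the knockouts. Those groups overlapped, with a log2 fold change of 0.48 ± 0.27 (edgeR adjusted p = 0.453). Ces1d, a lipase-like esterase, had 0.49 ± 0.52 and Ces1e had 0.25 ± 0.24, and neither passed. The difference between Ces1c and its neighbours was not tested. In the Ces2 family, which hydrolyses many ester prodrugs in the intestine, all 6 intervals lay within a 2-fold difference, and the median log2 fold change was -0.02. Ces2e stood at 377 ± 69.4 CPM for floxed controls and 371 ± 78.8 for knockouts (mean ± SD of 3 libraries), with a log2 fold change of -0.02 ± 0.22.

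Of the P450s, 14 Cyp2, 3 Cyp3 and 8 Cyp4 genes were tested. The Cyp4 enzymes hydroxylate fatty acids and eicosanoids. Cyp4f40, one of 5 Cyp4f genes in a cluster of 441.2 kb on chromosome 17, stood at 102, 126 and 118 CPM among the floxed controls and 177, 145 and 168 CPM among the knockouts. All knockouts were above all floxed controls. The log2 fold change was 0.50 ± 0.16, a level 1.42-fold higher, which did not pass by edgeR (adjusted p = 0.217) or DESeq2 (adjusted p = 0.0717). It kept its sign in all alternatives, between 0.44 and 0.59, and was 0.49 within floxed control 2 and knockout 1 and 0.51 within the other 4 libraries. Its neighbour Cyp4f14, the most abundant P450 here, stood at 383 ± 91.0 CPM among the floxed controls and 316 ± 42.3 CPM among the knockouts, with a log2 fold change of -0.28 ± 0.21 (edgeR adjusted p = 0.616). Cyp4x1, a P450 of low level, was at 2.49 ± 0.459 and 3.46 ± 0.361 CPM, with groups that did not overlap and an edgeR adjusted p of 0.514. Cyp4v3, a fatty acid hydroxylase, had a log2 fold change of -0.46 ± 0.29 (edgeR adjusted p = 0.521).

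Of the 14 Cyp2 genes, which oxidise drugs, steroids and arachidonic acid, 11 had a negative log2 fold change, and the family median was -0.31. Cyp2c68, of the drug and arachidonic acid metabolising Cyp2c group, stood at 35.4, 30.0 and 58.8 CPM among the floxed controls and 28.2, 22.3 and 31.6 CPM in the knockouts. Knockout 3 lay above floxed control 2, so the groups overlapped. The log2 fold change was -0.59 ± 0.25 (edgeR adjusted p = 0.329), and 43.3% of its 50-base windows also occur in other Cyp2c genes. Cyp2j9, of the arachidonic acid epoxygenase group, stood at 5.76, 3.74 and 6.79 CPM in the floxed controls and 3.61, 3.06 and 4.198 CPM in the knockouts. Again knockout 3 lay above floxed control 2, and the log2 fold change was -0.57 ± 0.30 (edgeR adjusted p = 0.42). The most abundant Cyp2 gene, Cyp2s1, known to metabolise retinoids and eicosanoids, was at 95.8, 143 and 122 CPM in the floxed controls and 148, 133 and 124 CPM in the knockouts, with overlapping groups (log2 fold change 0.17 ± 0.18). Cyp2u1, a fatty acid hydroxylase, had -0.31 ± 0.22.

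**Figure D3:**
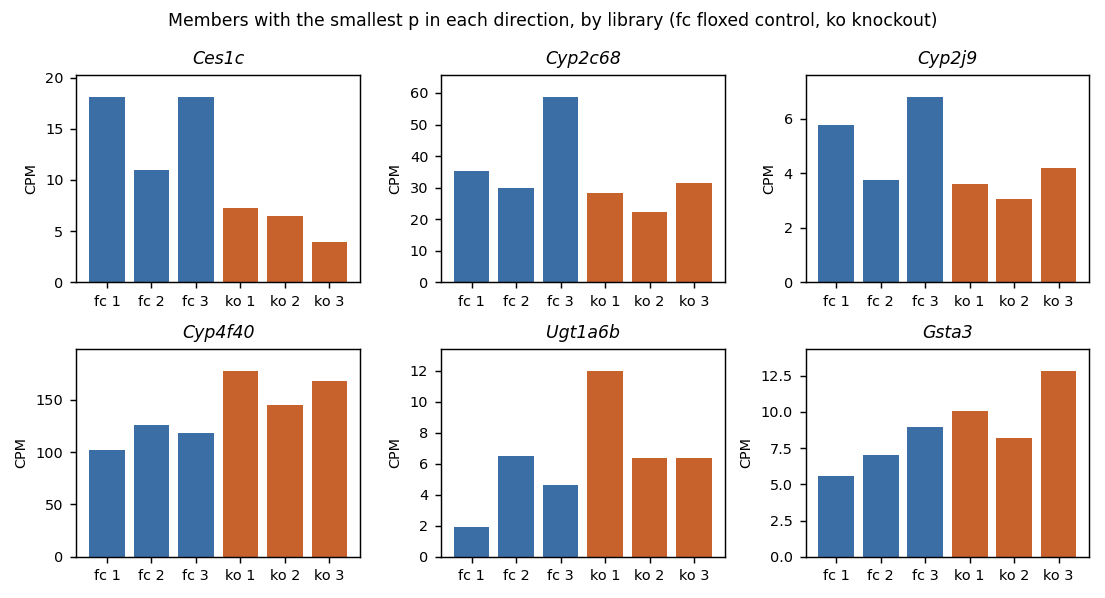
CPM (y axis, from 0) of the 3 enzymes with the smallest p in each direction, with 1 bar per library (x axis; fc floxed control in blue, ko knockout in orange). The bars of Ces1c and Cyp4f40 do not overlap between the groups, and those of the other 4 enzymes do.

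In floxed control 2 and knockout 1, 15 of the 77 enzymes (19.5%, against 8.56% of all genes) lay below all other 4 libraries, and 5 (6.49%, against 10.9%) lay above them, namely Ces1b, Cyp2s1, Gstm4, Ugt1a6b and Ugt1a7c. The 15 were Cyp3a11, Cyp3a13 and Cyp3a25, Cyp2b10, Cyp2d22 and Cyp2d26, Cyp4b1, Cyp4f14, Cyp4f17 and Cyp4v3, Aldh1a1 and Aldh1a7, Ces2a, Sult1a1 and Sult1d1, and so all 3 Cyp3 and both Aldh1a enzymes. For these 15 the mean of the 4 libraries over the mean of the pair ranged from 1.22 to 7.05, with a median of 2.13. The split of libraries was known from earlier results of these data and has no label of its own; it holds 1 library of each genotype, and no test was made on it.

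Cyp3a11, the main mouse drug-oxidising P450 and a target of the pregnane X receptor, showed it most. It stood at 61.7, 10.9 and 64.4 CPM among the floxed controls and 6.04, 50.3 and 62.0 CPM among the knockouts. The lowest of the 4 libraries was 4.62-fold above the higher of the pair. The genotype difference was -0.20 ± 0.96 on the log2 scale, with an interval from -2.59 to 2.18, and it would be 1.92 with floxed controls 1 and 3 left out. Cyp3a25, a neighbour of Cyp3a11 within 155 kb of chromosome 5, stood at 34.7, 14.9 and 39.2 CPM in the floxed controls and 5.70, 23.2 and 28.3 CPM in the knockouts. Both low libraries were again floxed control 2 and knockout 1. Cyp3a13, the most abundant of the family, was at 156, 95.5 and 153 CPM in the floxed controls and 98.9, 165 and 183 CPM in the knockouts. Cyp2b10, a drug-metabolising target of the constitutive androstane receptor, was at 21.6, 10.1 and 29.6 CPM in the floxed controls and 1.07, 10.2 and 23.7 CPM in the knockouts. Knockout 1 was lowest, but floxed control 2 lay just under knockout 2. Cyp3a11 and Cyp2b10 were chosen after their values were seen.

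**Figure D4:**
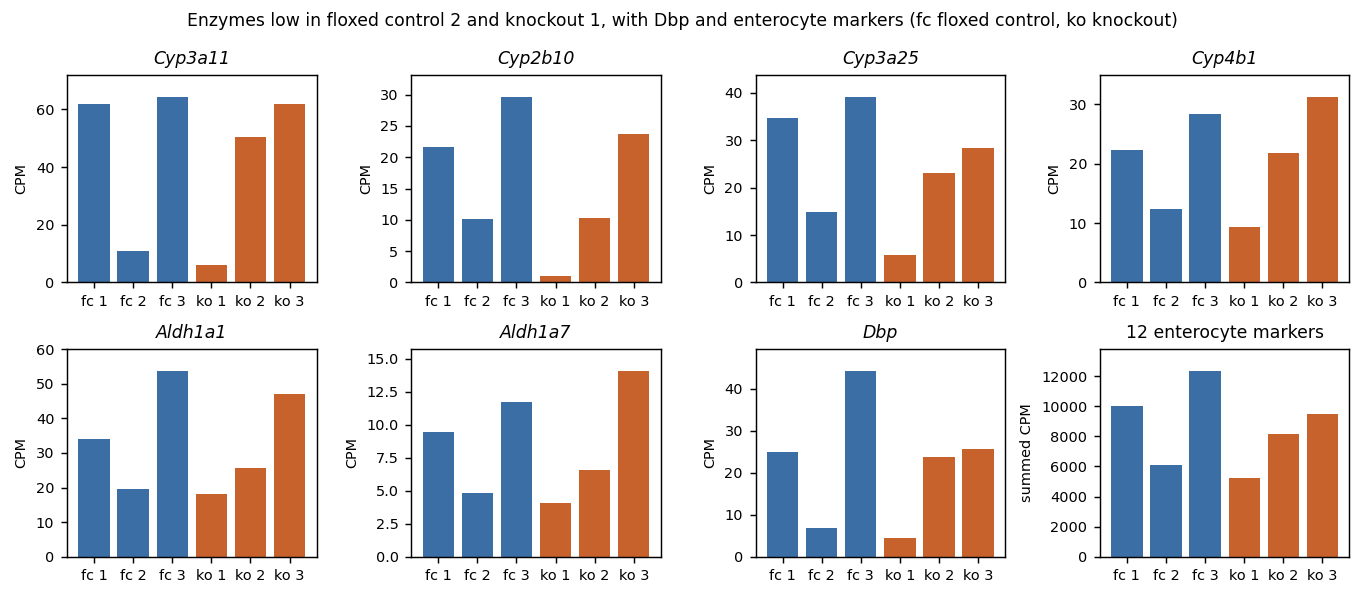
CPM by library (y axis from 0; fc floxed control in blue, ko knockout in orange) of 6 enzymes that lay lowest in floxed control 2 and knockout 1, with the clock output gene Dbp and the summed CPM of 12 enterocyte markers. Cyp3a11 stands at 10.9 and 6.04 CPM in the pair and at 50.3 CPM or more elsewhere.

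Enterocyte markers moved with this split. Summed over 12 markers they were 10013, 6092 and 12341 CPM among the floxed controls and 5225, 8150 and 9517 among the knockouts, and 10 of the 12 were lowest in the pair, with a mean of the 4 libraries 1.77-fold above that of the pair. Of 6 proximal small intestine markers 1 was lowest in the pair, Apoa4, which like Lct is also in the enterocyte list; the 6 summed to 448 to 864 CPM among the floxed controls and 312 to 1099 CPM among the knockouts. Of 5 distal markers 2 were lowest in the pair, and the 5 summed to 504 to 858 CPM and 612 to 966 CPM. Divided by the enterocyte sum, 4 of the 15 enzymes were still lowest in the pair: Cyp3a11, where the lowest of the 4 libraries was 2.92-fold above the higher of the pair, Cyp3a25 (1.16-fold), Cyp4b1 (1.09-fold) and Aldh1a7 (1.01-fold). Among the enterocyte markers themselves, Apoa4 (1.28-fold) and Fabp2 (1.04-fold) also stayed lowest after this division, and the others did not. The share over all genes after the division was not computed. Grouping the libraries on the 16 tested clock genes themselves gave this same pair, so that these genes follow the split is no separate finding. Of the 16, 10 were lowest in the pair and 3 highest. Dbp, a D-box factor, stood at 24.98, 6.82 and 44.2 CPM in the floxed controls and 4.46, 23.8 and 25.6 CPM in the knockouts, and Tef at 100.1, 30.0 and 114 CPM and 24.6, 92.7 and 97.0 CPM. The part of these markers and clock genes in the enzymes' pattern was not tested, and the sources used here do not give the time of collection.

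Of the enzymes low in the pair, the upstream windows of Cyp3a11, Cyp3a25 and Cyp2b10 are shown. They were picked for holding receptor half-sites or a D-box. Capitals mark matches to the nuclear receptor half-sites AGGTCA and AGTTCA, to the D-box TTATGNAA and to the dioxin response core GCGTG, each searched on both strands. They are from RefSeq for GRCm38.p6, at chr5:145879855-145880104 (minus strand), chr5:146009618-146009867 (minus strand) and chr7:25897408-25897657 (plus strand).
Cyp3a11: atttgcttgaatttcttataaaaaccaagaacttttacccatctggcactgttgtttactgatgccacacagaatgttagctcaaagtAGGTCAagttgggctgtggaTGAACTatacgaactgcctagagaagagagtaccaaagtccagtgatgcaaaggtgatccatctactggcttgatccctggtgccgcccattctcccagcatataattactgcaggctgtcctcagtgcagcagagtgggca
Cyp3a25: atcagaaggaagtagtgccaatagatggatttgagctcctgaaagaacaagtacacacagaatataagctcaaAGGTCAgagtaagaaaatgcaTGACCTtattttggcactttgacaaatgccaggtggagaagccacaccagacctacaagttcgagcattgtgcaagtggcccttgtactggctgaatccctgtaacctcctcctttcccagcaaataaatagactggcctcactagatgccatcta
Cyp2b10: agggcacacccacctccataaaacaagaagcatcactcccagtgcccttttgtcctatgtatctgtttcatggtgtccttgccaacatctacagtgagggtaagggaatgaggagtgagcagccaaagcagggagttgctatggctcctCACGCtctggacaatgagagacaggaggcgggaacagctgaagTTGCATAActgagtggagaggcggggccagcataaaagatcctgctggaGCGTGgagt
AGGTCA occurs in the windows of 16.4% of the enzymes and 15.8% of all genes, and AGTTCA in 11.9% and 13.4%. GCGTG occurs in 20.9% and 30.9%, the antioxidant element TGACNNNGC in 7.46% and 11.5%, and the E-box CACGTG, the site of the core clock factors, in 2.99% and 6.86%. In the 250 bases, Cyp3a11 and Cyp3a25 hold no D-box letters. Cyp2b10 holds a single D-box match, which begins 58 bases before the start, and no half-site. Also low in the pair, Cyp3a13, Cyp4b1, Cyp2d26, Aldh1a1, Aldh1a7 and Sult1a1 hold none of these elements in their windows. Ces2a, Cyp4f14, Cyp4v3 and Sult1d1 do hold matches. The part of such matches in the pattern was not tested.

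Among the enzymes of the rule, Adh and Aldh1a are the families of retinol and retinal oxidation. Retinol dehydrogenases lay outside the rule and are given below. Adh1, a class I alcohol dehydrogenase that oxidises ethanol and retinol, was at 87.8, 69.4 and 147 CPM among the floxed controls and 69.3, 37.6 and 119 CPM among the knockouts. The groups overlapped, and the log2 fold change was -0.43 ± 0.39 (edgeR adjusted p = 0.691). Adh4, an alcohol dehydrogenase that also uses retinol, was near the limit of the filter at 1.14, 1.70 and 2.76 CPM in the floxed controls and 2.31, 0.751 and 2.46 CPM in the knockouts. Adh5, which oxidises S-hydroxymethylglutathione, was at 53.4, 70.5 and 60.2 CPM and at 68.7, 64.4 and 85.0 CPM, with overlapping groups (0.24 ± 0.17). Adh6a stood at 47.8, 43.5 and 66.7 CPM and at 36.5, 22.3 and 70.3 CPM, and its groups overlapped too (-0.29 ± 0.35).

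Aldh1a1, which makes retinoic acid from retinal, was at 34.1, 19.5 and 53.7 CPM among the floxed controls and 18.1, 25.6 and 47.1 CPM in the knockouts, and both floxed control 2 and knockout 1 were low. The log2 fold change was -0.23 ± 0.39 (edgeR adjusted p = 0.852). Its neighbour Aldh1a7 was at 9.43, 4.85 and 11.7 CPM and at 4.06, 6.55 and 14.0 CPM, with the same 2 libraries low (-0.06 ± 0.43). The remaining Aldh1a genes, Aldh1a2 and Aldh1a3, had at most 2 and 7 counts and were left out. Also left out were Adh7, with 11 counts at most, and Adh6b, with 1.

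**Figure D5:**
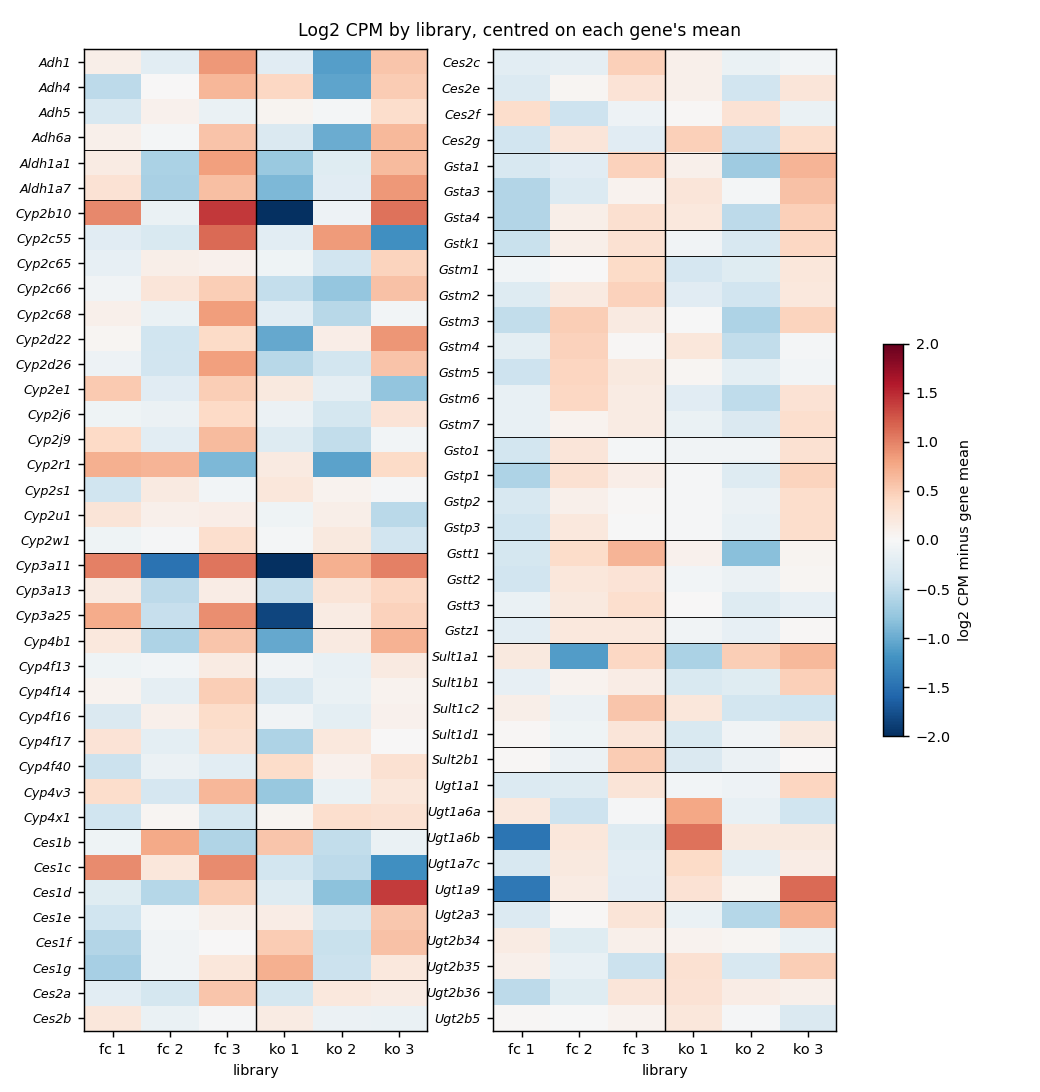
Log2 CPM of each enzyme in each library, centred on the enzyme's mean (colour, saturating at 2 in either direction), with families separated by horizontal lines and the genotypes by a vertical line. Blue cells in floxed control 2 and knockout 1 stand out for Cyp3a11, Cyp3a25 and the Aldh1a genes, and in knockout 1 alone for Cyp2b10.

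Among the glutathione transferases, all 7 Gstm genes, which lie in 149.3 kb of chromosome 3, had a negative log2 fold change (median -0.20) and an interval within a 2-fold difference, but none had an unadjusted p under 0.05. Gstm1, the most abundant, stood at 61.7, 64.4 and 83.7 CPM in the floxed controls and 51.0, 54.3 and 74.9 CPM in the knockouts, with overlapping groups (-0.22 ± 0.19). The 3 Gstt genes were also negative (median -0.28), with Gstt1 at -0.47 ± 0.30 and Gstt3 at -0.28 ± 0.17. Genes of 1 cluster share sequence and surroundings, so such counts are not independent.

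The 3 Gsta and the 3 Gstp genes were positive, with medians of 0.12 for both. Gsta3, a known target of the antioxidant factor Nrf2, was at 5.59, 7.02 and 8.96 CPM among the floxed controls and 10.04, 8.21 and 12.8 CPM among the knockouts. Knockout 2 lay below floxed control 3, so the groups overlapped slightly, and the log2 fold change was 0.53 ± 0.25 (edgeR adjusted p = 0.375). Gstp1 was at 454 ± 137 CPM among the floxed controls and 484 ± 124 CPM among the knockouts, and Gsto1 at 467 ± 98.8 and 498 ± 75.8 CPM. Without knockout 3 the log2 fold changes of Gsta1, Gstp1, Gstp2 and Gsto1 were -0.26, -0.13, -0.01 and -0.04. Gstp1 and Gstp2 share 51% and 50.4% of their 50-base windows with another gene, and Gsta1 89.7%, so reads may have been divided among copies. Single members of other classes stayed near 0 in log2 fold change, with Gstk1 at 0.02 ± 0.25 and Gstz1 at -0.15 ± 0.17.

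The 5 tested Ugt1a genes, which are spliced from separate first exons to shared last exons in 149.2 kb of chromosome 1, all had a positive log2 fold change (median 0.23). Ugt1a6b stood at 1.92, 6.49 and 4.63 CPM among the floxed controls and 11.96, 6.38 and 6.38 CPM among the knockouts. Knockout 1 alone lay above every floxed control. The log2 fold change was 0.91 ± 0.40 (edgeR adjusted p = 0.357), and 79.8% of its 50-base windows also occur in other genes of the locus. Ugt1a9, near the filter limit, had 0.96 ± 0.47 (adjusted p = 0.398). Ugt1a7c, the most abundant, was at 184 ± 35.3 CPM in the floxed controls and 216 ± 43.2 CPM in the knockouts (0.23 ± 0.21), and Ugt1a1, the enzyme that conjugates bilirubin, had 0.19 ± 0.21. Because the exons are shared, these 5 values are not independent.

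Of the 5 Ugt2 genes, all intervals lay within 2-fold: the most abundant, Ugt2b34, was at 248 ± 36.0 and 243 ± 17.9 CPM, and Ugt2b35 and Ugt2b36 had log2 fold changes of 0.34 ± 0.22 and 0.33 ± 0.24. Among sulfotransferases, Sult1b1, which acts on thyroid hormones and phenols, was at 119 ± 13.0 and 119 ± 37.8 CPM. Sult2b1, a cholesterol sulfotransferase, was at 79.6 ± 18.9 and 64.8 ± 6.69 CPM, a log2 fold change of -0.30 ± 0.19 (edgeR adjusted p = 0.534). Sult1c2 had -0.37 ± 0.30.

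The remaining genes of the pathway gave 0 calls by edgeR at an adjusted p under 0.05 in each of 8 lists. Of 17 tested regulators of xenobiotic genes, 10 had a positive and 7 a negative log2 fold change (median 0.02); 3 had knockouts above all floxed controls (6.99% of all genes) and 1 had them below (10.3% of all genes). Nr1i2, the pregnane X receptor, was at 74.1, 85.6 and 81.6 CPM in the floxed controls and 95.1, 92.8 and 117 CPM in the knockouts. All knockouts lay above all floxed controls, with a log2 fold change of 0.34 ± 0.16 (edgeR adjusted p = 0.379). Maff, a small Maf partner of Nrf2, had -0.43 ± 0.19 (adjusted p = 0.354), Mafg had 0.34 ± 0.16 and Nr1h4, the bile acid receptor FXR, had 0.47 ± 0.24.

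Of 9 electron donor and haem genes 8 were negative (median -0.06), with Fech, the last enzyme of haem synthesis, at -0.28 ± 0.16, and Por, the P450 reductase, at -0.10 ± 0.20. Of 13 cofactor genes 8 were positive (median 0.09), with Slc35d1, a transporter of UDP-glucuronic acid, at 0.37 ± 0.18 and Papss1, which makes the sulfate donor, at -0.30 ± 0.16. Of 23 other xenobiotic enzymes 11 were positive (median -0.04). Among these, Fmo1, a flavin monooxygenase, was at 9.96, 7.93 and 7.98 CPM in the floxed controls and 13.2, 13.7 and 13.6 CPM in the knockouts, and the groups did not overlap (0.65 ± 0.19, edgeR adjusted p = 0.181), while Hpgds, a prostaglandin D synthase also found in tuft cells, had -0.999 ± 0.38. All 5 tuft cell markers were negative too (median -1.03) and summed to 175, 79.4 and 155 CPM among the floxed controls and 86.2, 51.6 and 61.5 CPM among the knockouts, and their part in the Hpgds value was not tested. Of 12 transporters 5 were positive (median -0.04). Abcc4, an exporter of conjugates, was at 12.7, 7.67 and 11.1 CPM in the floxed controls and 5.76, 6.01 and 4.31 CPM in the knockouts, again without overlap (-0.96 ± 0.25, adjusted p = 0.152).

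In the retinoid lists, 13 genes of uptake, binding and storage had a median of -0.02. Rbp4, the plasma retinol carrier, was at 4.28, 3.74 and 6.79 CPM in the floxed controls and 2.76, 1.77 and 2.13 CPM in the knockouts. Every knockout lay below all floxed controls (-1.14 ± 0.33, edgeR adjusted p = 0.181). All 5 enteroendocrine markers were negative too (median -0.87), and the part of cell type markers in the Rbp4 value was not tested. Scarb1, a carotenoid and lipid receptor, had -1.04 ± 0.37. Of 14 retinol and retinal dehydrogenases and genes of retinoic acid breakdown 9 were positive (median 0.06), with Akr1b10 at -0.48 ± 0.22. Cyp26a1, which breaks down retinoic acid, had at most 1 count. Of 11 retinoic acid receptors and targets 10 were negative (median -0.14). Itga4 and Ccr9, both found on gut-homing T cells, had -1.03 ± 0.42 and -1.11 ± 0.49. The T cell markers summed above were highest in floxed controls 1 and 3, and their part in these values was not tested.

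In position, 63 of the 77 enzymes lie in 17 clusters with gaps of at most 500 kb, and 14 lie singly, on 13 chromosomes in all. The largest clusters hold 7 genes each, the Gstm genes on chromosome 3 and the Ugt2 and Sult1 genes on chromosome 5. By sequence, 17 enzymes share over 20% of their 50-base windows with another gene, up to 95.98% for Ugt1a6a, and 15 share none. Without the 17, the median log2 fold change was -0.06 for the remaining enzymes.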

How the data were processed

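Single-end mRNA reads of 50 bases were made from 6 crypt libraries on the DNBSEQ platform, per the labels. The build was mm10, per the submitters' processing notes; the sources used here do not give the aligner, counter, annotation or strand use. Values are estimated counts per gene that the authors made from their reads and deposited without normalisation, and 31.1% to 35.2% of those in a library are not whole. The design had assumed raw counts; values were rounded to whole numbers.

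edgeR 4.0.16 in R 4.3.3 used filterByExpr (12943 genes), TMM scaling, a robust quasi-likelihood fit of all 6 libraries on genotype, and Benjamini-Hochberg adjustment over all genes tested. The test was run on simulated counts beforehand. CPM are TMM-scaled; ± is SD for CPM and SE for log2 fold changes (prior count 2). Alternatives were DESeq2 1.42.0 (and its size factors), limma-voom (limma 3.58.1), TMM without the 50 most abundant genes, other count filters, a replicate block, libraries left out, a term for the split on clock genes, and thinning. Figures used Python 3.11.15 and matplotlib 3.10.9. The biological coefficient of variation was 20.3%.

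The 77 enzymes, gene lists and split were chosen with earlier results of these data known. Named enzymes are, per family, the most abundant and that with the smallest p, the 10 with the smallest p in each direction at a mean of 1 CPM or more, and all Adh and Aldh1a; of each pathway list, up to 4 genes with the smallest p. Not every gene under this rule is reported here. Other names were chosen after their values were seen. Transcript windows are from GENCODE M21, coordinates and promoters from RefSeq GRCm38.p6. Intervals rest on the spread of 3 libraries per group.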

Additional observations from a re-analysis of the deposited data

How the results depend on the processing

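Of 42 named enzymes, 41 were called in none of the alternatives, and 18 kept the sign of their log2 fold change in all of them. Genes called over all tested numbered 2 by edgeR, 0 with DESeq2 size factors, 321 by DESeq2, 1 by limma-voom, 67 with no filter beyond 1 count, 12 with floxed controls 1 and 3 left out, 1 with the clock term, and 0 to 955 with 1 library left out, the highest without floxed control 2. Enzymes called numbered 1 (Ces1c) by DESeq2 and with no filter, and 0 to 1 with 1 library left out. With the replicate block 39 genes and 0 enzymes were called, and the median of the enzymes was -0.06. Libraries with the same number correlated at -0.18, -0.27 and 0.07 in their deviations from the group means. With 3 libraries per group, these values cannot show whether the numbers pair the libraries, and the labels do not state it. The difference in the enzymes' share of counts was -0.00427 points with effective library sizes. The planned removal of enzymes by protein identity was not run, since no protein table was used here; shared 50-base windows took its place, chosen after the data were seen.

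Enzymes whose log2 fold change had the other sign were called in no such setting. With floxed controls 1 and 3 left out these were Adh1 (0.17), Adh4 (0.17), Adh6a (0.0402), Aldh1a1 (0.69), Aldh1a7 (0.82), Ces2e (0.024), Ces2g (-0.0105), Cyp2b10 (0.27), Cyp2j9 (0.0146), Cyp2s1 (-0.0243), Cyp3a11 (1.92), Cyp3a25 (0.41), Cyp4f14 (0.11), Cyp4v3 (0.23), Gstk1 (-0.0137), Gsto1 (-0.125), Gstp1 (-0.15), Sult1b1 (0.0124), Sult1c2 (0.017), Sult2b1 (0.0403) and Ugt2b34 (0.29). By DESeq2 they were Adh4 (0.0103), Ces2e (0.0042), Sult1b1 (0.0234) and Ugt2b34 (0.0029). With its size factors they were Adh4 (0.00058) and Sult1b1 (0.0097), with no filter Adh4 (0.0158), Ces2e (0.0027) and Sult1b1 (0.0209), and after thinning Adh4 (0.0788), Aldh1a7 (0.0057), Gstk1 (-0.0066) and Sult1b1 (0.0011). With 1 library left out the values ran from -0.69 to 0.265 for Aldh1a7, -0.68 to 0.31 for Cyp3a11, -0.26 to 0.44 for Gsta1, -0.21 to 0.22 for Gstk1, -0.0358 to 0.264 for Gsto1, -0.13 to 0.28 for Gstp1, -0.14 to 0.0775 for Ugt2b34, -0.0466 to 0.37 for Cyp3a13, -0.29 to 0.14 for Sult1b1, -0.27 to 0.40 for Adh4, -0.70 to 0.205 for Aldh1a1, -0.15 to 0.15 for Ces2e, -0.84 to 0.0266 for Adh6a and -0.011 to 0.24 for Gstp2. The cause was not tested. Leaving out floxed controls 1 and 3 leaves 1 control, whose spread is taken from the knockouts. With 3 libraries per group, the depth and spread leave some intervals wide, such as that of Cyp3a11, from -2.59 to 2.18 on the log2 scale.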
